A study of Mus musculus with 12 samples.

Results

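The cell cycle genes described here are 40 genes of dividing cells, 15 of DNA replication and 25 of mitosis, measured in the aortic valve of mice at postnatal day 10. They were chosen by name, with earlier results of these data known. They are the rows of the count table whose identifier the authors' deposited table of differential expression pairs with any of 40 symbols. All 40 were found among 20620 genes. Each library is a pool of 3 aortic valves, and 4 pools were counted in each of 3 groups. The groups were wildtype, Notch1+/-;Gata5+/- (here the double heterozygotes) and Notch1+/-;Gata5-/- (here the Gata5 nulls), so that both mutant groups carried the same Notch1 genotype and differed in the second Gata5 allele. Notch1 is a receptor through which neighbouring cells signal to each other, and Gata5 is a GATA-type transcription factor needed in heart and valve development. The labels give no strain or sex, and do not say which part of Notch1 was removed. The question for these genes was whether the transcripts of dividing cells differed between valves of the 3 genotypes. In bulk tissue, fewer dividing cells and less RNA per dividing cell cannot be told apart. The counts also do not show which cell types of a pool carried these transcripts.

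A cell that divides first copies its DNA and then separates the copies. Transcription factors of the E2F family switch on the replication genes late in G1, and the B-MYB (Mybl2) and FOXM1 proteins, with the MuvB complex, switch on the mitosis genes in G2. Resting cells hold both sets low through DREAM, a repressor complex assembled on the same promoters. Valve interstitial cells, the fibroblast-like cells of the leaflet, and the endothelium that covers them still divide in the first weeks after birth, while the leaflets lengthen and lay down layered matrix.

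Both sets of promoters are known for short elements: E2F sites in replication genes, and the CCAAT box and the CHR (cell cycle genes homology region, TTTGAA) in mitosis genes. The 250 bases upstream of the annotated start were read from RefSeq sequences of GRCm38.p6 for 33 of the 40 members, 13 of 15 replication genes and 20 of 25 mitosis genes. Both strands were searched for TTTGAA, for CCAAT and for any of the 4 E2F spellings TTTCGCGC, TTTGGCGC, TTTCCCGC and TTTGCCGC. The spellings can overlap each other on opposite strands. These 4 promoters are shown because their genes are the most abundant members for their length, Pcna, Mki67 and Top2a, and because Mcm6 carries E2F spellings. All 4 genes lie on the minus strand, and the windows are chr2:132253181-132253430 for Pcna, chr1:128359706-128359955 for Mcm6, chr7:135716380-135716629 for Mki67 and chr11:99024190-99024439 for Top2a. Capitals mark every match to a searched element on either strand, written 5′ to 3′ along the gene.
Pcna: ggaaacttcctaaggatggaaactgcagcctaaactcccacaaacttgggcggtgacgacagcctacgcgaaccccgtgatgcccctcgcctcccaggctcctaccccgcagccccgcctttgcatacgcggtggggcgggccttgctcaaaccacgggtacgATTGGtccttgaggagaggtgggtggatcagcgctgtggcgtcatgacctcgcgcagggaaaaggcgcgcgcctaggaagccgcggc
Mcm6: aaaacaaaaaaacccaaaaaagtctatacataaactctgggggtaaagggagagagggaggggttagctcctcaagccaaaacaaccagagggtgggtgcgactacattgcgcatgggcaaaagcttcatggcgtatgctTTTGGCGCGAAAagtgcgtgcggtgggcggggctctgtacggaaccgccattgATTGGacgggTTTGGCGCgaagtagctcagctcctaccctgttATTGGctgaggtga
Mki67: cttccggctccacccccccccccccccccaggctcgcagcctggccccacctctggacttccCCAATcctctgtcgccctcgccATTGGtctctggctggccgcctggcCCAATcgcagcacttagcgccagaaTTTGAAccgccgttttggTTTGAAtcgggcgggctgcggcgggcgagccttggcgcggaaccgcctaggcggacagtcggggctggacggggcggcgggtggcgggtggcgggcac
Top2a: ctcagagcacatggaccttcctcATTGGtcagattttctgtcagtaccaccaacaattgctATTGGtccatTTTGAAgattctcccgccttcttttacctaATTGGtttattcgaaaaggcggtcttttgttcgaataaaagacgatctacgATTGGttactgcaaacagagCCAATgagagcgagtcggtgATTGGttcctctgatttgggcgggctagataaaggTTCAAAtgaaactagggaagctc

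The Mki67 window held 2 CHR and 3 CCAAT matches and the Top2a window 2 CHR and 6 CCAAT matches, with no E2F spelling in either. The Mcm6 window held 3 E2F matches and 2 CCAAT matches with no CHR, and the Pcna window 1 CCAAT match alone. Over the members with a sequence, a CHR and a CCAAT box occurred together in 8 of 20 mitosis promoters and 2 of 13 replication promoters (15.4%), against 6.45% of 27025 genes. A CCAAT box, with or without a CHR, was common in both lists. It occurred in 80.0% of the mitosis and 69.2% of the replication promoters, against 37.5% of all genes. An E2F spelling occurred in 5.0% of the mitosis and 30.8% of the replication promoters, against 2.16% of all genes. A match is a description of letters and not a measured binding site.

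Total counts ran from 13866604 to 25059653 per library, so that 3 counts, the limit that a count of 0 allows, corresponded to 0.124 to 0.207 CPM (read counts scaled to a common library total, with TMM factors). Gata5 had 0 counts in all 4 Gata5-null pools, against 18 to 56 in wildtype and 15 to 112 in the double heterozygotes. Notch1 was not lower in the mutant groups, with 1907 to 3393 counts in wildtype, 2925 to 3999 in the double heterozygotes and 2215 to 4540 in the Gata5 nulls. Markers of valve interstitial cells were abundant in every pool (Col1a1 at 5404 CPM or more), and so were cardiomyocyte transcripts in all 12 (Myh6 at 6479 to 20089 CPM). Summed over 12 cardiomyocyte markers, the group means were 42411, 47046 and 47152 CPM in wildtype, double heterozygotes and Gata5 nulls. Over 8 interstitial markers they were 22640, 23782 and 23091 CPM. Single pools differed more in the cardiomyocyte sum. Wildtype pool 2 stood at 24141 CPM, against 45984 to 53047 in the other wildtype pools. Double-heterozygous pool 1 stood at 29939 CPM, against 49757 to 57232 in the others of its group, and the Gata5 nulls ran from 39785 to 56610 CPM. Among deposited genes, 6000 were at 0 in Gata5-null pool 3 and 3208 in wildtype pool 2, against 1017 to 2908 in the other 10 libraries. Where leaving out these pools moves a named value by much, both values are given.

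All 40 members passed the filter on low counts, and none was at 0 in more than 1 library. Per kilobase of exon, the highest of the replication genes was Pcna, the sliding clamp that holds DNA polymerase on its template, at a mean level of 32.5 CPM per kilobase, the 95.5th percentile of genes tested. Among the mitosis genes the highest was Mki67, which coats mitotic chromosomes and is the standard marker of cycling cells, at 17.1 CPM per kilobase (89.9th percentile). Top2a, which untangles the copied DNA, followed at 14.7 and Cdc20, an activator of the anaphase-promoting complex, at 10.2 CPM per kilobase. The helicase subunits Mcm6, Mcm3 and Mcm7 lay at 8.91, 8.74 and 7.83 CPM per kilobase. At the low end were Ccne1 (cyclin E1, which starts S phase) at 0.969 and Ube2c (the ubiquitin-conjugating enzyme of anaphase) at 0.922 CPM per kilobase. The median member stood at the 59.7th percentile among the replication genes and at the 52.9th among the mitosis genes.

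**Figure D1:**
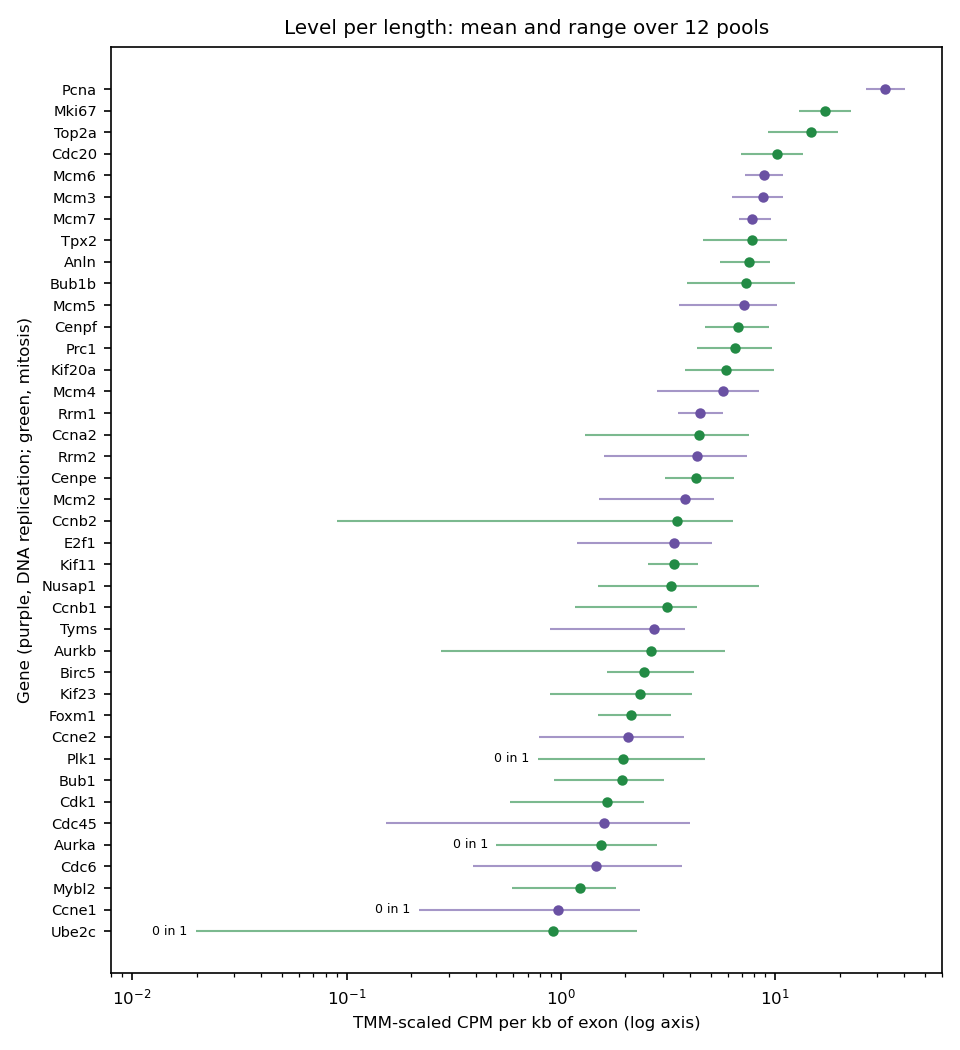
Mean level of each cell cycle gene over the 12 libraries, in CPM per kilobase of exon on a log axis, with replication genes in purple and mitosis genes in green and the range over libraries as lines (libraries at 0 are marked and left off the log axis). Pcna (32.5), Mki67 (17.1) and Top2a (14.7) are the highest, and Ccne1 (0.969) and Ube2c (0.922) the lowest.

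Scarcer members tended to vary more between pools. The biological coefficient of variation, the spread between pools beyond counting noise, was 0.171 to 0.447 for the 27 members with a mean of at least 10 CPM and 0.418 to 1.06 for the 13 below it. Its median over the members was 0.330, against 0.424 over all genes tested. Of the 4 members with a count of 0, Ccne1 had it in wildtype pool 2, Plk1 in Gata5-null pool 1, and Aurka and Ube2c in Gata5-null pool 3. Exons of 10 members overlap a gene on the opposite strand, and the strand of these libraries is not known, so that part of their counts may belong to the neighbour. The overlap was largest for the kinesin gene Kif20a, with 29.3% of its exon bases shared with Cdc23, and for Ube2c, with 22.8% shared with Tnnc2, a troponin gene of striated muscle.

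Summed over the 15 replication genes, the level was 381 ± 51.4 CPM in wildtype (SD, n = 4), 366 ± 31.6 in the double heterozygotes and 375 ± 42.4 in the Gata5 nulls. Over the 25 mitosis genes it was 794 ± 166, 831 ± 59.3 and 872 ± 180 CPM, in the same order. The highest and the lowest group mean thus differed by 4.01% for replication and 9.89% for mitosis. Within a group, the highest pool exceeded the lowest by a ratio of 1.19 to 1.35 for replication and 1.18 to 1.59 for mitosis. A mean of 4 pools varies less than a single pool, so the smaller gap between means cannot decide whether the genotypes were equal. For 34 of the 40 members the range of the 3 group means was smaller than the largest SD within a group. The exceptions were Ccne1, Mcm7, Tyms, Foxm1, Ccnb2 and Cdk1. The share of all genes that meet this was not computed, so the count only describes the members.

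**Figure D2:**
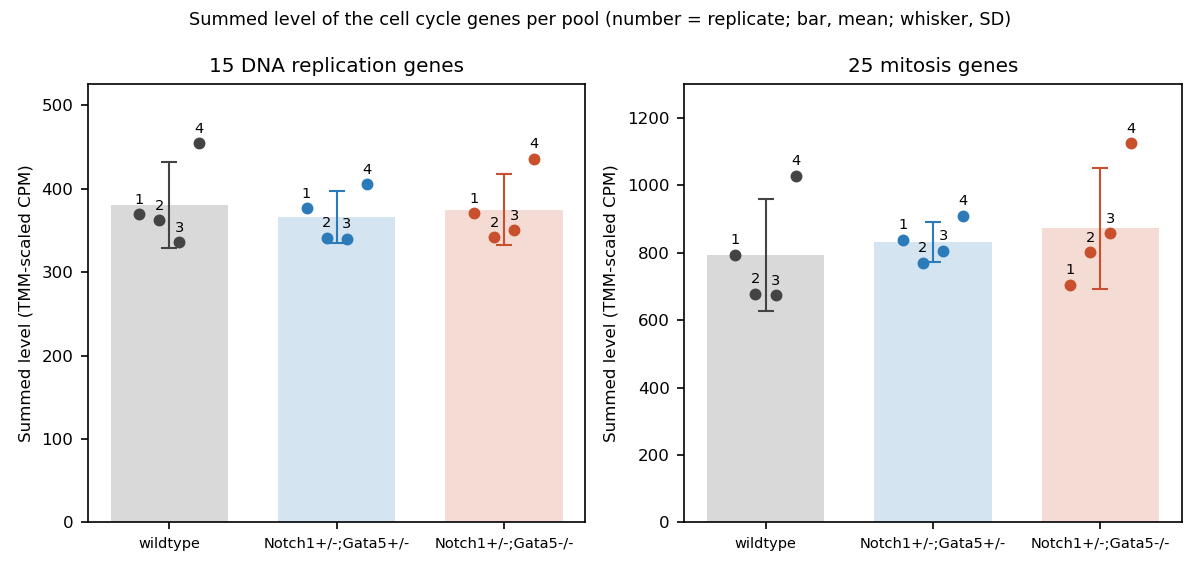
Summed level of the replication genes and of the mitosis genes in each of the 12 libraries, in CPM, with the mean and SD of each genotype. The groups overlap in both sums, and the pools numbered 4 are the highest of each genotype.

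No member was called in the Gata5 nulls against wildtype, where edgeR's quasi-likelihood test with Benjamini-Hochberg adjustment over 19346 genes called 5 genes in all (0.0258%), every one lower. At an unadjusted p under 0.05 there were 1044 genes (5.4%) and 1 member, Tyms. DESeq2 called 49 genes (0.24%) and limma-voom 6 (0.031%), with 0 members each. The median log2 fold change was 0.03 over the replication genes, with 8 above and 7 below 0, and 0.17 over the mitosis genes, with 17 above and 8 below 0, against −0.03 over all genes. Without wildtype pool 2 and Gata5-null pool 3 the medians were −0.03 and 0.12. With 1 library left out the mitosis median ran from 0.02 without Gata5-null pool 4 to 0.29 without wildtype pool 4.

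The usual markers of proliferation differed little between the Gata5 nulls and wildtype. Mki67 read 168, 140, 129 and 204 CPM in wildtype pools 1 to 4 and 151, 167, 168 and 226 in the Gata5 nulls. The ranges overlapped, with pool 4 highest in both, and the log2 fold change was 0.15 (SE 0.15, 95% interval −0.15 to 0.46). Top2a read 118, 120, 107 and 159 CPM in wildtype and 83.2, 127, 173 and 177 in the Gata5 nulls, which held both the lowest and the highest values. Its log2 fold change was 0.15 (SE 0.19), or 0.02 without wildtype pool 2 and Gata5-null pool 3. Pcna read 66.1, 63.6, 79.6 and 97.1 CPM in wildtype and 71.1, 68.1, 91.9 and 95.3 in the Gata5 nulls, a log2 fold change of 0.09 (SE 0.16) between ranges that nearly coincide, or −0.04 without those pools. Mcm2, a subunit of the replicative helicase, read 30.8, 23.9, 22.2 and 36.0 CPM in wildtype and 29.6, 10.5, 24.99 and 30.9 in the Gata5 nulls. Only pool 2 of the nulls lay below the wildtype range, and the log2 fold change was −0.23 (SE 0.28), or 0.01 without that pool.

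Tyms, thymidylate synthase, which makes the thymidine nucleotide for new DNA, had the smallest p of the members. It read 20.8, 22.5, 13.5 and 23.0 CPM in wildtype and 18.4, 13.0, 5.44 and 13.1 in the Gata5 nulls. Pools 2, 3 and 4 of the nulls lay below the whole wildtype range, while pool 1 lay inside it. The log2 fold change was −0.67 (SE 0.32, 95% interval −1.33 to −0.01, unadjusted p = 0.0457), with an adjusted p of 0.904 by edgeR and p = 0.0571 in the two-sided exact permutation test. Without wildtype pool 2 and Gata5-null pool 3 the log2 fold change was −0.36. The other nucleotide supply genes lay to either side of their wildtype means: Rrm1 and Rrm2, subunits of ribonucleotide reductase, had means of 47.2 ± 11.3 and 14.3 ± 5.90 CPM in the Gata5 nulls (SD, n = 4) against 51.4 ± 8.97 and 10.4 ± 5.62 in wildtype.

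Nusap1 and Cenpf had the next smallest p. Nusap1, which bundles spindle microtubules, read 6.03, 10.4, 14.3 and 12.6 CPM in wildtype and 6.32, 17.5, 34.3 and 14.5 in the Gata5 nulls. Pool 3 of the nulls, one of the libraries that stand apart, carried most of the difference: the log2 fold change was 0.74 (SE 0.40) with all pools and 0.24 without that pool. Cenpf, a large kinetochore and nuclear matrix protein, read 90.5, 72.5, 78.5 and 126 CPM in wildtype and 95.8, 108, 107 and 144 in the Gata5 nulls. Wildtype pools 1 to 3 lay below all 4 nulls and wildtype pool 4 lay inside their range, with a log2 fold change of 0.31 (SE 0.17) and an adjusted p of 0.9997 by edgeR for both genes.

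The largest fold changes belonged to the scarcest members. Ccne1 read 1.51, 0, 1.60 and 1.502 CPM in wildtype and 6.23, 4.73, 4.54 and 0.578 in the Gata5 nulls. Pools 1 to 3 of the nulls were above every wildtype pool and pool 4 was below all wildtype pools but the one at 0. The fitted log2 fold change was 1.80 (SE 1.08, 95% interval −0.43 to 4.02, adjusted p of 0.9997 by edgeR), or 1.33 without wildtype pool 2 and Gata5-null pool 3. In the authors' deposited table, which names no comparison and matches a DESeq2 refit of the same pair of groups, Ccne1 had the smallest p of the members, with a log2 fold change of 1.85 and an adjusted p of 0.772. Ube2c read 0.624, 1.78, 0.0517 and 2.90 CPM in wildtype and 3.61, 5.05, 0 and 5.86 in the Gata5 nulls, which held the 3 highest values and the lowest. Its log2 fold change was 1.43 (SE 1.20), or 2.02 without the same pools.

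Foxm1, the forkhead factor of the mitosis genes, was the single member whose pools did not overlap in this comparison. It read 10.7, 9.86, 9.72 and 10.3 CPM in wildtype and 18.9, 11.2, 11.5 and 13.5 in the Gata5 nulls. Of all genes, 0.936% were higher in the Gata5 nulls without overlap and 1.99% lower, so that 1 member in 40 is near the background. The log2 fold change was 0.44 (SE 0.31), with p = 0.0286 in the exact permutation test, the smallest it can give with 4 pools against 4, and 0.977 after adjustment over all genes. Foxm1 was picked out after its values were seen. Mybl2, which acts with FOXM1, had means of 4.84 ± 1.74 CPM in wildtype and 6.95 ± 2.81 in the Gata5 nulls (SD, n = 4).

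**Figure D3:**
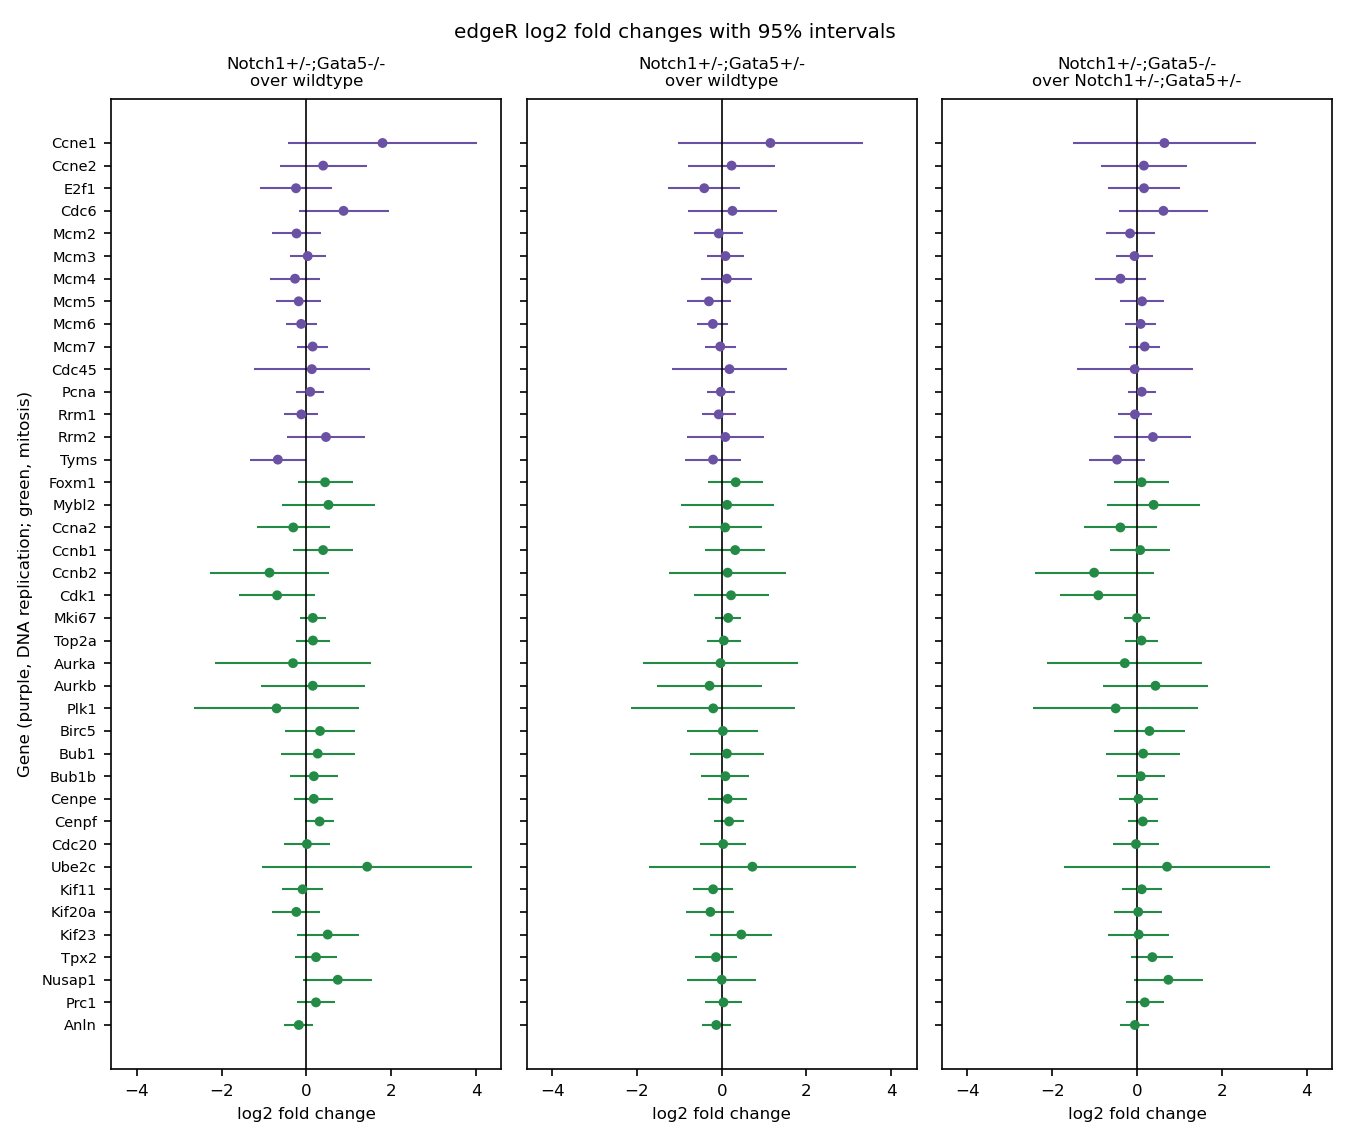
Fitted log2 fold change of each of the 40 genes, with its 95% interval, in the 3 comparisons between genotypes. Of all intervals, those of Tyms in the Gata5 nulls against wildtype and of Cdk1 between the mutant groups do not cross 0, and intervals are widest for scarce genes such as Ccne1 and Ube2c.

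In the double heterozygotes against wildtype, edgeR called 0 of 19346 genes (0.0%), and DESeq2 called 8 (0.0391%) and limma-voom 0, with 0 members in any of these fits. At an unadjusted p under 0.05 there were 242 genes (1.25%) and 0 members. The median log2 fold change was −0.02 over the replication genes, with 7 above and 8 below 0, and 0.08 over the mitosis genes, with 18 above and 7 below 0, against 0.00 over all genes. Without wildtype pool 2 the medians were −0.10 and −0.02, so the sign of the mitosis median rested on that pool. The mitosis median was −0.02 without wildtype pool 3 too.

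Mki67 read 167, 172, 180 and 193 CPM in the double heterozygotes, inside the wildtype range, a log2 fold change of 0.15. Top2a read 125, 113, 132 and 152 CPM (0.05) and Pcna 84.3, 70.2, 69.1 and 78.3 CPM (−0.02), also inside the wildtype ranges. Mcm2 read 21.5, 28.6, 22.2 and 35.4 CPM, a log2 fold change of −0.07. The members with the smallest p were Kif23, Mcm6 and Mcm5, each with an adjusted p of 1 by edgeR. Kif23, a kinesin of the central spindle, read 13.5, 6.99, 17.4 and 20.4 CPM in wildtype and 20.4, 23.0, 20.8 and 16.1 in the double heterozygotes. Its log2 fold change was 0.46 (SE 0.35), and 0.23 without wildtype pool 2, the lowest value. Mcm6 read 49.0, 46.2, 33.7 and 50.5 CPM in wildtype and 42.4, 40.5, 36.4 and 35.9 in the double heterozygotes, a log2 fold change of −0.21 (SE 0.18). Mcm5 read 26.7, 36.3, 24.1 and 40.6 CPM in wildtype and 28.2, 20.7, 27.4 and 27.5 in the double heterozygotes, a log2 fold change of −0.30 (SE 0.25). For Mcm6 all heterozygous pools lay below wildtype pools 1, 2 and 4 and above pool 3, and for Mcm5 pool 2 alone lay below the wildtype range. The largest fold changes were again those of Ccne1 (1.51, 3.23, 3.23 and 2.28 CPM, log2 fold change 1.15, and 0.73 without wildtype pool 2) and Ube2c (0.833, 2.98, 1.81 and 3.25 CPM, log2 fold change 0.72). No member was without overlap in this comparison, where 1.32% of all genes were higher and 0.915% lower without overlap.

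Between the mutant groups, which differ in the second Gata5 allele, edgeR called 0 of 19346 genes (0.0%), DESeq2 13 (0.0648%) and limma-voom 0, again with 0 members. At an unadjusted p under 0.05 there were 616 genes (3.18%) and 1 member, Cdk1. The median log2 fold change was 0.11 over the replication genes and 0.09 over the mitosis genes, against −0.04 over all genes, and without Gata5-null pool 4 the medians were −0.01 and −0.08. No member was without overlap, against 0.703% of all genes higher and 2.03% lower in the Gata5 nulls. Mki67 had a log2 fold change of −0.0017 (95% interval −0.31 to 0.30), Top2a of 0.10, Pcna of 0.11 and Mcm2 of −0.16.

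Cdk1, the kinase that drives entry into mitosis, read 11.6, 8.54, 12.1 and 8.59 CPM in the double heterozygotes and 8.66, 2.85, 2.96 and 7.15 in the Gata5 nulls. Pools 2, 3 and 4 of the nulls lay below the whole heterozygous range, with pools 2 and 3 the lowest, and pool 1 lay just inside it. The log2 fold change was −0.91 (SE 0.43, 95% interval −1.81 to −0.02, unadjusted p = 0.0459, adjusted p of 1 by edgeR), or −0.70 without Gata5-null pool 3. Ccnb2, a cyclin partner of that kinase, read 6.87, 6.67, 3.98 and 9.08 CPM in the double heterozygotes and 3.93, 3.82, 0.138 and 5.25 in the Gata5 nulls. The value in Gata5-null pool 3 is under the limit that a count of 0 allows, and the log2 fold change was −1.01 (SE 0.68), or −0.61 without that pool. Another cyclin partner, Ccnb1, had means of 13.9 ± 1.59 CPM in the double heterozygotes and 14.6 ± 3.02 in the Gata5 nulls (SD, n = 4). Nusap1 read 12.4, 10.3, 12.7 and 8.01 CPM in the double heterozygotes, which gave a log2 fold change of 0.74 (SE 0.40), and 0.24 without Gata5-null pool 3. Tpx2, which activates Aurora A on the spindle, read 41.4, 21.6, 32.5 and 34.0 CPM in the double heterozygotes and 36.2, 31.7, 52.6 and 46.0 in the Gata5 nulls, in overlapping ranges with a log2 fold change of 0.36 (SE 0.24), or 0.23 without Gata5-null pool 3.

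A missed threshold does not show that levels were equal, and the intervals say how large a difference these pools leave room for. The 95% interval lay within a 2-fold change in either direction for 19 of the 40 members in the Gata5 nulls against wildtype, for 26 in the double heterozygotes against wildtype and for 22 between the mutant groups. The median SE of a log2 fold change was 0.25 for members with a mean of at least 10 CPM and 0.59 to 0.60 for those below it. For Mki67 the interval between the Gata5 nulls and wildtype allowed a change of at most 0.46 on the log2 scale. For scarce members such as Ccne1, Ube2c, Aurka and Plk1 the intervals reached beyond a 2-fold change.

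Many of the members varied together between the pools of a genotype. The pool numbered 4 had the highest summed replication level of its group in wildtype (455 CPM, 27.7% over the mean of pools 1 to 3), in the double heterozygotes (406 CPM, 15.01%) and in the Gata5 nulls (436 CPM, 22.9%). For mitosis genes the sums in these pools were 1029 CPM (43.8%), 910 CPM (13.0%) and 1125 CPM (42.7%). This pattern was noticed after the values were seen, and the labels do not say that a number marks a batch, a litter or a day. In wildtype, 30 of 40 members (75.0%) were highest in pool 4, against 25.8% of all genes. The counts were 17 (42.5%, against 27.7%) in the double heterozygotes and 21 (52.5%, against 26.5%) in the Gata5 nulls. In all 3 genotypes at once, 11 members (27.5%) were highest in pool 4, against 4.83% of all genes. These were Mcm2, Mcm3, Ccnb1, Ccnb2, Mki67, Top2a, Aurka, Bub1b, Cenpf, Ube2c and Prc1. Among genes with a mean of at least 10 CPM, 8 of 27 members (29.6%) and 8.35% of all such genes were highest there. Further mitosis genes, 44 of them outside the members, summed to 27.2%, 14.04% and 32.7% over pools 1 to 3 in pool 4. For 31 further replication genes the excess was 4.51%, 10.7% and 15.9%, and in wildtype pool 1 was higher (493 against 489 CPM). Pool 4 was also highest in each genotype for the summed level of 8 G1 cyclin and kinase genes (17.2%, 7.47% and 10.4% over). Of these 8 genes, 3, 4 and 5 were themselves highest there. With library totals, their sum in the double heterozygotes was 792 CPM in pool 4 against 794 in pool 3. The sum of 15 genes of the RB, E2F and DREAM families was highest in pool 4 as well (6.30%, 11.7% and 9.23% over), but with library totals in no genotype. For 6 inhibitors of cyclin-dependent kinases the excess was 9.25%, 6.08% and 17.7%, with pool 4 highest in the Gata5 nulls alone. Bub1b, a kinase of the spindle checkpoint, read 36.6, 25.3, 16.5 and 38.8 CPM in wildtype, 27.7, 29.3, 27.7 and 39.9 in the double heterozygotes and 30.8, 22.3, 26.4 and 52.8 in the Gata5 nulls. Prc1, which bundles microtubules of the central spindle, read 56.2, 35.6, 44.1 and 63.9 CPM, 58.7, 40.1, 47.6 and 59.3, and 46.8, 66.5, 40.8 and 79.4, in the same order.

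**Figure D4:**
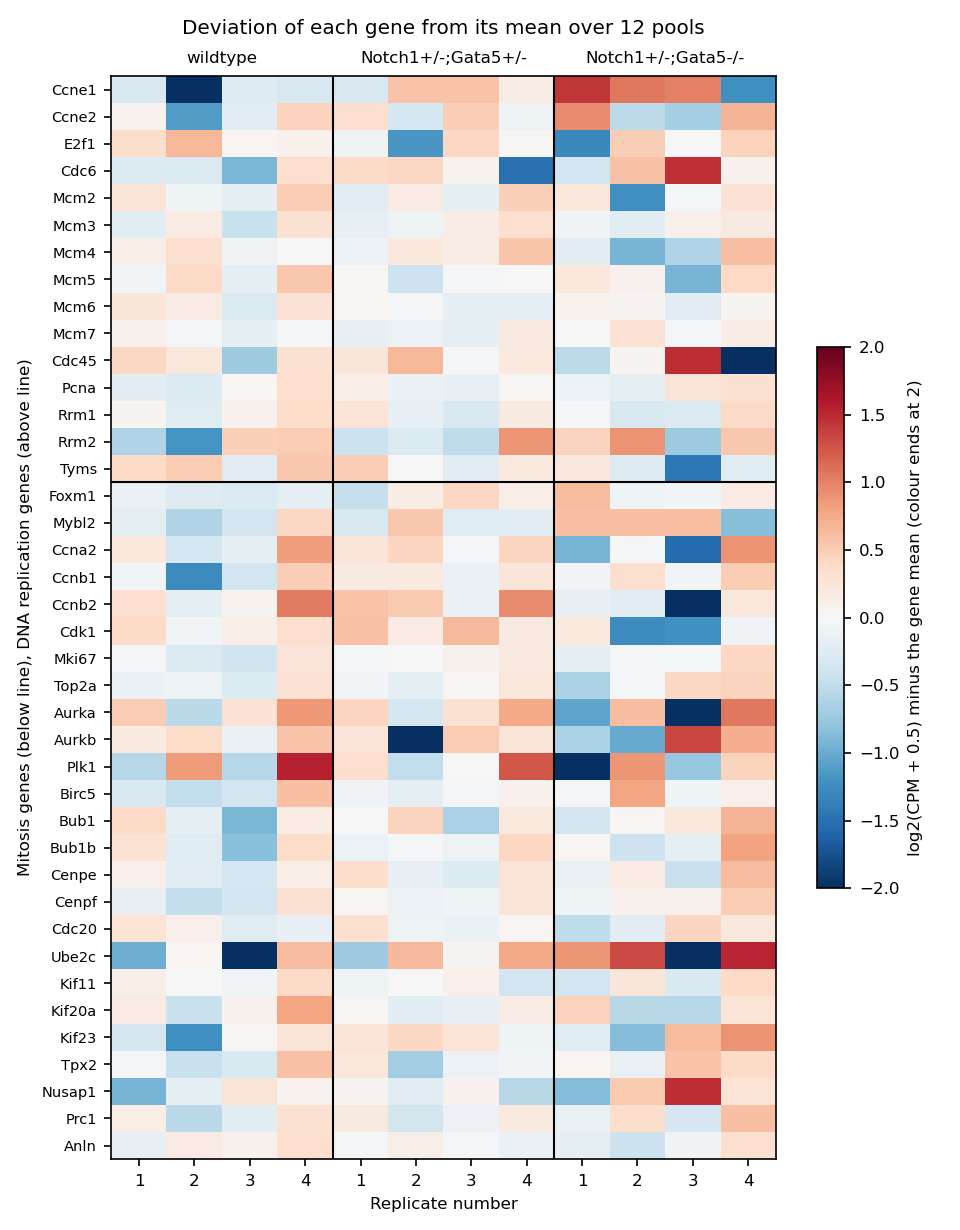
Deviation of each gene's log2(CPM + 0.5) in each library from its mean over the 12 libraries, with genes in rows, libraries in columns by genotype and replicate number, and colours that end at 2 log2 units below (blue) and above (red) the mean. In wildtype 30 of 40 genes are highest in the column of the pool numbered 4.

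**Figure D5:**
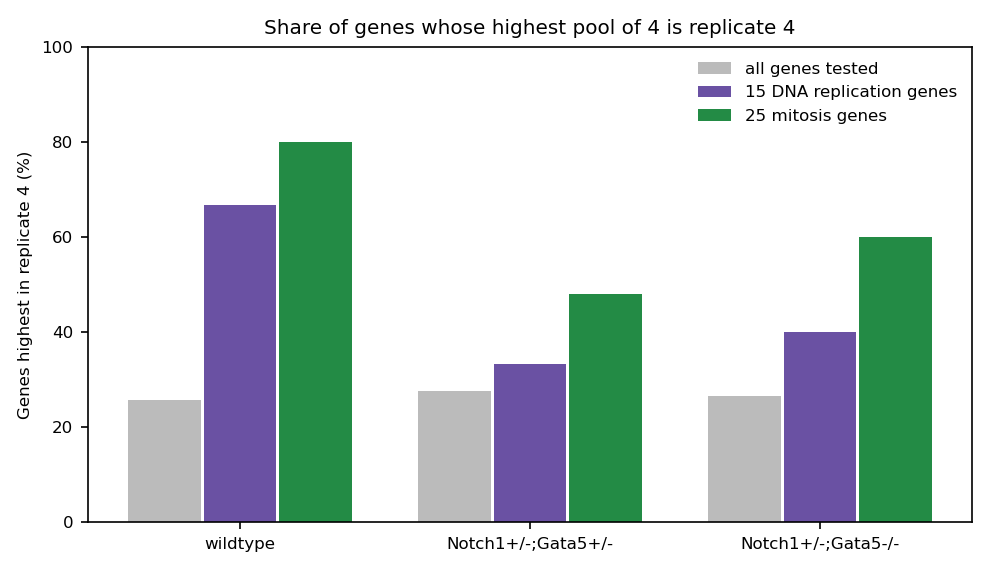
Share of genes, in percent, whose highest library of a genotype is the pool numbered 4, for all genes tested (grey), the 15 replication genes (purple) and the 25 mitosis genes (green). In wildtype it is 10 of 15 replication and 20 of 25 mitosis genes against 25.8% of all genes, in the double heterozygotes 5 and 12 against 27.7%, and in the Gata5 nulls 6 and 15 against 26.5%.

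Other measures moved with the pool number. The pools numbered 4 had the highest total counts of their groups (21450396, 21573022 and 25059653) and the lowest TMM factors (0.931, 0.955 and 0.967). With plain library totals in place of TMM, the double-heterozygous pool 4 was no longer the highest, with 388 CPM for replication against 400 in pool 1 and 869 CPM for mitosis against 891. In the Gata5 nulls 6 of 15 replication genes were highest in pool 4 with TMM, but 3 with library totals or RLE scaling, while the 15 of 25 mitosis genes became 14 with either. The summed level of 8 endothelial markers was also highest in pool 4 of each genotype (989, 1052 and 1113 CPM, 15.8%, 22.3% and 34.2% over pools 1 to 3), and so was that of 8 smooth muscle markers (19.1%, 9.89% and 29.7% over). Single markers were less uniform. Highest in pool 4 were 5, 2 and 5 of the 8 endothelial and 4, 3 and 7 of the 8 smooth muscle markers, against 25.8%, 27.7% and 26.5% of all genes. With library totals, pool 4 was no longer the highest for endothelial markers in the double heterozygotes (1005 against 1049 CPM in pool 1), nor for smooth muscle markers in wildtype (6800 against 7123 CPM in pool 2). The 8 valve interstitial markers differed from pools 1 to 3 by 1.78%, −4.53% and −1.19%. The sum of the 12 cardiomyocyte markers was highest in pool 4 of both mutant groups but not of wildtype. Of the 12, 10 were themselves highest in that pool in the double heterozygotes and 8 in the Gata5 nulls. Summed over 5 T lineage markers (Cd3d, Cd4, Cd8a, Rag1 and Dntt), the level was 24.1 CPM in wildtype pool 4 against 7.43 to 10.8 in wildtype pools 1 to 3, but 4.90 in double-heterozygous pool 4 and 1.24 in Gata5-null pool 4, each the lowest of its group. Cd3d was at 0 in 8 of the 12 libraries and Dntt at 0 in 6. The 6 erythroid markers tested summed to 87.6, 76.3 and 67.1 CPM in the pools numbered 4, against 28.4 to 59.4, 41.2 to 58.0 and 49.2 to 73.3 in the other pools of the same genotypes. The part of these measures in the pattern was not tested.

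The replication and mitosis genes varied together from pool to pool. Over the 12 libraries the mean standardized log2 CPM of the 15 replication genes and of the 25 mitosis genes had a Pearson r of 0.867 and a Spearman rho of 0.839. After leaving out wildtype pool 4 and Gata5-null pool 4, the libraries farthest from the median, r was 0.700 and rho 0.733, and after subtracting each group's mean r was 0.895. The points share library depth and scaling, and the values are a description. The members closest to the mean of the other 39 were Mki67 (r = 0.906 over 12 libraries), Cenpf (0.857), Bub1b (0.815), Prc1 (0.810) and Cenpe (0.775), the motor of the kinetochore. Members with a mean of at least 10 CPM had a median r of 0.496 and those below it 0.380. Cdc45, the helicase cofactor, ran lowest at −0.44, and Mybl2, Nusap1, Ccne1, Cdc6 and Foxm1 also had values below 0.

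Genes that surround these members in the pathway were read from lists fixed by function. None was called in any comparison by edgeR, among 8 G1 cyclin and kinase genes, 6 tested inhibitors of cyclin-dependent kinases, 15 genes of the RB, E2F and DREAM families, 31 further replication genes and 44 further mitosis genes. Ccnd2, the most abundant D-type cyclin here, which carries growth signals to the cycle, had means of 376 ± 54.8, 387 ± 23.9 and 379 ± 22.3 CPM in wildtype, double heterozygotes and Gata5 nulls (SD, n = 4). Ccnd1 had means of 64.1, 68.7 and 68.0 CPM in the same order. Of the inhibitors that hold cells in G1, Cdkn1b had means of 52.5, 56.0 and 51.04 CPM, Cdkn1c of 32.9, 35.02 and 32.9 CPM and Cdkn1a of 44.97, 44.95 and 36.1 CPM. The largest SD within a group was 54.8 CPM for Ccnd2, 17.3 for Ccnd1, 8.58 for Cdkn1b, 9.05 for Cdkn1c and 15.9 for Cdkn1a. For each of these cyclins and inhibitors, the counterweights of G1, the range of the group means was smaller than that SD. Such a comparison cannot decide whether their levels were equal.

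At an unadjusted p under 0.05 were 4 of these 104 genes (3.85%) in the Gata5 nulls against wildtype, 1 (0.962%) in the double heterozygotes against wildtype and 0 between the mutant groups. Over all genes the shares were 5.4%, 1.25% and 3.18%, so no share of the 104 exceeded the background. With so few genes, the first 2 shares cannot be told from it. Kif2c, a kinesin that takes microtubules apart at the centromere, read 5.82, 2.53, 2.17 and 6.36 CPM in wildtype, 13.3, 11.8, 7.96 and 11.1 in the double heterozygotes and 12.1, 7.25, 7.30 and 13.9 in the Gata5 nulls. Every mutant pool lay above every wildtype pool, as for 1 of the 104 genes in the Gata5 nulls (0.962%, against 0.936% of all genes) and 2 in the double heterozygotes (1.92%, against 1.32%), Kif2c and Gins3, a replication gene noted for this after its values were seen. The log2 fold change was 1.39 (SE 0.44, unadjusted p = 0.0044, adjusted p of 1 by edgeR) in the double heterozygotes and 1.27 (unadjusted p = 0.0082, adjusted p of 0.839) in the Gata5 nulls, and both comparisons share the wildtype pools. Ndc80, a microtubule-binding kinetochore subunit, read 5.72, 6.10, 6.21 and 10.3 CPM in wildtype and 13.7, 7.32, 27.9 and 14.5 in the Gata5 nulls, a log2 fold change of 1.17 (adjusted p of 0.828 by edgeR) with the highest value in Gata5-null pool 3. Without that pool and wildtype pool 2 it was 0.69. Ccnh, the cyclin of the kinase that activates other cyclin-dependent kinases, read 20.8, 22.3, 18.9 and 19.4 CPM in wildtype, 12.9, 18.3, 16.2 and 10.9 in the double heterozygotes and 8.95, 8.22, 14.2 and 16.4 in the Gata5 nulls. All 8 mutant pools lay below wildtype, and Ccnh was the 1 gene of the 104 lower without overlap in each mutant group (0.962%, against 1.99% of all genes in the Gata5 nulls and 0.915% in the double heterozygotes), with log2 fold changes of −0.48 in the double heterozygotes (adjusted p of 1 by edgeR) and −0.77 in the Gata5 nulls (adjusted p of 0.839). In the double heterozygotes the next smallest p belonged to Rbl1, an RB relative of the DREAM complex (11.6 ± 0.899 against 16.5 ± 3.19 CPM, SD, n = 4), and Chaf1a, a chaperone that places histones on new DNA (30.1 ± 5.91 against 23.0 ± 2.62 CPM). Between the mutant groups the smallest belonged to Prim2, a primase subunit (20.7 ± 11.0 in the Gata5 nulls against 13.4 ± 3.04 CPM, a log2 fold change of 0.63, or 0.21 without the pools that stand apart), and Cdc25b, a phosphatase that activates CDK1 (21.5 ± 4.69 against 15.2 ± 3.34 CPM). None of these genes passed the threshold over all genes.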

How the data were processed

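The data were raw counts per gene for the 12 libraries, as the authors deposited them, and the authors' deposited results of a comparison they do not name (a mean signal after normalization, log2 fold changes, their standard errors and Wald statistics as scores, and p-values). Per the submitters' processing notes, Trim Galore, STAR 2.7.10b, GRCm39 and DESeq2 1.34.0 were used. For the counting tool, annotation and strand setting the sources used here give nothing. In R 4.3.3, edgeR 4.0.16 kept 19346 of 20620 genes (filterByExpr), scaled libraries by TMM and fitted a robust quasi-likelihood model of the 3 groups over all 12 libraries. Calls were made at a Benjamini-Hochberg adjusted p under 0.05 over all genes tested. limma 3.58.1 (voom) and DESeq2 1.42.0 were alternatives, and the exact permutation test used log2(CPM + 0.5). Exon lengths came from GENCODE M21 (GRCm38) and promoters from RefSeq (GRCm38.p6), a build other than that of the counts. Intervals and floors cover counting error or the spread between 4 pools a group.

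The members, lists and tests were chosen with earlier results of these data known. Named were Mki67, Top2a, Pcna and Mcm2, any called member, in each comparison the 3 members with the smallest p and the 2 with the largest change, the highest and lowest of each list, 5 cyclin and inhibitor genes, the 3 genes of the surrounding lists with the smallest p in each comparison, and the 8 other genes most correlated with the members. Over all genes, deviations from the group means of pools with the same replicate number had correlations of −0.033 to 0.0951 over 12 pairs, so the numbers were not used as pairs. The closing section gives the alternatives.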

Additional observations from a re-analysis of the deposited data

Results flagged for a closer look

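In 10 of 120 sets of 4 pools (40 genes in 3 genotypes), 1 pool lay apart from the other 3 by Dixon's ratio. Chance flags about 1 set in 20. Among replication genes, Ccne1 was at 0 CPM in wildtype pool 2, where the nearest pool read 1.502. Mcm5 was lowest in double-heterozygous pool 2 at 20.7 CPM, next to 27.4, and Mcm6 was lowest in Gata5-null pool 3 at 35.1 CPM, next to 43.0. Rrm2 was highest in double-heterozygous pool 4 at 20.2 CPM, next to 8.74.

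Among mitosis genes, Mybl2 was highest in double-heterozygous pool 2 at 7.99 CPM, next to 4.56, and lowest in Gata5-null pool 4 at 2.73 CPM, next to 8.33. Ccnb1 was lowest in double-heterozygous pool 3 at 11.5 CPM, next to 14.4. Birc5, the survivin subunit of the complex that corrects chromosome attachment, was highest in wildtype pool 4 at 12.5 CPM, next to 6.39, and highest in Gata5-null pool 2 at 14.2 CPM, next to 8.63. Bub1b was highest in double-heterozygous pool 4 at 39.9 CPM, next to 29.3.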

How the results depend on the processing

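No member was called in any comparison under any of the alternatives run: RLE scaling, no filter, a stricter filter, DESeq2, limma-voom, a fit of the 8 libraries compared, each library left out, both libraries that stand apart left out, the replicate block and, chosen after seeing the data, library totals in place of TMM and a fit without the 3 libraries numbered 4. The smallest adjusted p of any member over them was 0.507. The genes called in the Gata5 nulls against wildtype numbered 5, but 49 with DESeq2, 0 with only the 8 libraries compared, 2 without both libraries that stand apart and 2 to 21 with 1 library left out (2 without wildtype pool 2, 3 without Gata5-null pool 1, 21 without Gata5-null pool 4). DESeq2 called 8 in the double heterozygotes against wildtype. Between the mutant groups, where edgeR called 0, DESeq2 called 13, the fit without both libraries that stand apart 2 and those with 1 library left out 0 to 1. The cause was not tested. With the replicate block, 7 genes were called in the Gata5 nulls against wildtype and 0 members; over all genes, 3 of 12 pairs of same-numbered pools correlated best with their own number, of which 2 joined wildtype pool 4 to a mutant pool 4. The replication median between the mutant groups (0.11) was 0.047 with the replicate block, 0.027 without the libraries numbered 4 and −0.0087 to 0.17 with 1 library left out.

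Of 468 values of single members, 28 changed sign, all of them of Mki67, Top2a, Pcna or Mcm2, whose log2 fold changes lay near 0. For Pcna it was −0.043 in the Gata5 nulls against wildtype without both libraries that stand apart, and in the double heterozygotes against wildtype 0.0017 with the block, 0.097 without the libraries numbered 4 and 0.011 with library totals. Mki67 between the mutant groups was 0.029 with RLE, 0.030 with DESeq2, 0.028 with library totals, 0.033 without both libraries that stand apart, 0.0039 with the stricter filter and 0.0069 with the 8 libraries. Top2a between the mutant groups was −0.0063 without both libraries that stand apart. With 1 library left out, Mcm2 ran from −0.38 to 0.012 in the Gata5 nulls against wildtype, −0.23 to 0.070 in the double heterozygotes against wildtype and −0.31 to 0.081 between the mutant groups. Top2a ran from −0.029 to 0.18 in the double heterozygotes against wildtype and −0.032 to 0.31 between the mutant groups. Pcna ran from −0.10 to 0.12 in the double heterozygotes against wildtype, and Mki67 from −0.14 to 0.085 between the mutant groups. Fold changes were imprecise for the 13 members with a mean under 10 CPM, whose biological coefficient of variation was 0.418 to 1.06. Of these, Ccne1, Aurka, Plk1 and Ube2c had a count of 0 in 1 library, and Ccnb2 a count of 2 in Gata5-null pool 3. Others were counted well in every library, such as Birc5 with at least 109 counts and Bub1 with at least 78.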

Other observations

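Outside all lists, the 8 genes whose log2 CPM ran closest to the mean of the 40 cell cycle genes over the 12 libraries were Nucks1 (r = 0.924), Rnps1 (0.923), Pabpc1 (0.920), Sox4 (0.915), Msn (0.888), Tpm3 (0.886), Kansl2-ps (0.886) and Sra1 (0.884). Nucks1, a chromatin protein, read 258, 209, 223 and 328 CPM in wildtype pools 1 to 4, 256, 225, 253 and 315 in the double heterozygotes and 243, 258, 244 and 306 in the Gata5 nulls. Sox4, a transcription factor of embryonic progenitors and of the heart's outflow tract, read 153, 118, 117 and 180 CPM, 131, 126, 144 and 157, and 115, 152, 119 and 188, in the same order. Both were highest in the pool numbered 4 of every genotype. None of the 8 was called in any comparison by edgeR, with adjusted p of 0.9997 in the Gata5 nulls against wildtype and of 1 in the other comparisons. Kansl2-ps is annotated as a pseudogene, and its mean of 0.700 CPM makes its correlation uncertain. The genes were chosen for this likeness, and the points share library depth and scaling.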
